A study of Mus musculus with 5 samples.

Results

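The genes of the mTOR complexes were examined in ChIPseq peak lists of acetylated histones from TM cells. They are 10 genes of 21938 protein-coding genes. *Mtor* encodes the kinase, *Mlst8*, *Rptor*, *Akt1s1* and *Rictor* encode its partners, *Rheb*, *Tsc1* and *Tsc2* its small GTPase switch, and *Rraga* and *Lamtor1* its anchor on the lysosome. The genes were chosen by name around *Mlst8*, and *Mlst8* itself was selected on its peaks, since it has a strong promoter peak in both WT lists and none in the lists of the mutant. That pattern is therefore a description and no test was made of it. All 10 genes were found in the annotation of GRCm38, the build to which the authors aligned the reads, and each is described below.

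TM cells are activated CD8+ T cells kept in IL-15, a cytokine that drives memory-like differentiation. For this differentiation the study's methods name OT-I cells activated with OVA peptide. The 5 libraries are 2 of WT cells and 3 labelled PDH_Mutant, named *TPdh-/-* here. *TPdh-/-* mice carry a floxed *Pdha1* gene, which encodes the E1 alpha subunit of the pyruvate dehydrogenase complex, and a *Cd4-cre* transgene that acts in developing T cells, so that CD8+ cells lose the gene as well. Both genotypes received the same activation and IL-15, adult mice of both sexes were used in the study. The methods give an age range for the mice of the study as a whole. Neither they nor the labels say which age, which sex and how many mice stand behind each library, or whether WT mice carried the Cre transgene. The study states more ChIPseq samples per genotype than are analysed here. The labels name acetyl K18, and the study describes the antibody as one against acetylated lysine of histones. Each list gives, for every peak, its position, a fold enrichment over the local background of the peak caller, and a −log10 q, which rises with the strength of the call. Peaks were ranked by −log10 q within their own list, and the percentile is the share of the list at or below a peak. A promoter peak is one that lies within 3000 bp of any annotated start site of the gene.

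mTOR is a serine/threonine kinase that joins nutrient and growth factor signals to protein synthesis and cell growth. Its complex 1 holds Raptor, the product of *Rptor*, and is recruited to the lysosome by Rag GTPases that sit on the Ragulator complex, where the GTPase Rheb turns the kinase on. The TSC complex turns Rheb off. Complex 2 holds Rictor in place of Raptor and acts on AKT, and MLST8 is a subunit of both. In CD8+ T cells mTOR activity is known to shape the choice between effector and memory fates, and acetylation of histones at a promoter is a mark of active or open chromatin.

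The lists held between 4920 and 15962 peaks, and the depth behind them is unknown, since no read numbers are in them. WT replicate 1 was the longest, and *TPdh-/-* replicate 3, with 9418 peaks, was longer than WT replicate 2, with 8859. The weakest −log10 q in a list was between 1.00 and 1.03, so a gene without a peak may carry acetylation below that limit. Promoter peaks were also counted at 5 genes expressed in CD8+ T cells (*Cd3e*, *Cd3d*, *Cd8a*, *Cd8b1* and *Ptprc*), not all of them particular to these cells. A peak was called at 5 in WT replicate 1, at 4 in WT replicate 2, and at 2, 4 and 4 in *TPdh-/-*. Of all coding genes, 42.1% and 24.8% had a promoter peak in WT, and 15.3%, 16.5% and 27.9% in *TPdh-/-*. For 2 WT and 3 *TPdh-/-* libraries an exact permutation test has 10 arrangements, and its two-sided p cannot fall below 0.2. Such a p reflects how many of the arrangements part the libraries at least as far, and it does not measure their spread. Whether replicates came from separate mice is not stated, so the p concerns these libraries alone.

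Promoter sequences are shown for 5 members whose peaks differ most: *Mlst8* (peak in WT alone), *Rheb* and *Lamtor1* (peak in every list), and *Mtor* and *Tsc2* (no promoter peak in any list). Each is the reference sequence of GRCm38.p6 directly before the first annotated start site, read 5′ to 3′ on the strand of the gene, up to 250 bases and only as far as no annotated exon begins. Capitals mark any of 7 short motifs on either strand: CCGGAAG (the ETS core), CACGTG (the E-box of MYC and TFEB), GGGCGG (the SP1 box), CCAAT (the NF-Y box), TATAAA (the TATA box), GCATGCG (part of the NRF1 motif) and AAGATGG (part of the YY1 motif). Overlapping matches were counted separately.
Mlst8 (chr17:24479079-24479328, minus strand): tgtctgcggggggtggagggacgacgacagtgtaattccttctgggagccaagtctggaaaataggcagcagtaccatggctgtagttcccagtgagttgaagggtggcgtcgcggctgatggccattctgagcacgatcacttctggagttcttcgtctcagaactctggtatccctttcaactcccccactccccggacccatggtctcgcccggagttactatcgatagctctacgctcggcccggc
Rheb (chr5:24842625-24842874, minus strand): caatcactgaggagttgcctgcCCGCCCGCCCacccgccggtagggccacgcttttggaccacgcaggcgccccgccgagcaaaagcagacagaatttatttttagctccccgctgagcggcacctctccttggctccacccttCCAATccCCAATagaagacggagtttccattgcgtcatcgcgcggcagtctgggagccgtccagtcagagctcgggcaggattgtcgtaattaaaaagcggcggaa
Lamtor1 (chr7:101905654-101905903, plus strand): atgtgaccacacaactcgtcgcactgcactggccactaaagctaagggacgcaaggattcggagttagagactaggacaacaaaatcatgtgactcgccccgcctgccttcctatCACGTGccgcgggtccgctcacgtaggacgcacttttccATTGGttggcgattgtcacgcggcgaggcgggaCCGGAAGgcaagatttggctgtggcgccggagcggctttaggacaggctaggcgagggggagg
Mtor (chr4:148448361-148448610, plus strand): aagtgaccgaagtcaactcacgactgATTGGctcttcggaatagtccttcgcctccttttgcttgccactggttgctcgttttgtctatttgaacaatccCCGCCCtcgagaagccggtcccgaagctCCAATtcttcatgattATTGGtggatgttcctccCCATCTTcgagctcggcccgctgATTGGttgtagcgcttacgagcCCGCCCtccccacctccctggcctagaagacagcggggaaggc
Tsc2 (chr17:24632631-24632679, minus strand): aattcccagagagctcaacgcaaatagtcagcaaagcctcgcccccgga

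The 250 bases before *Mlst8* held none of the 7 motifs, were 57.6% G and C, and had 15 CpG, against a median of 54% and 8 CpG over the 21938 coding promoters of the same length. *Mtor*, with no promoter peak, had 2 GGGCGG, 4 CCAAT and 1 AAGATGG. *Rheb* had 2 GGGCGG and 2 CCAAT, and *Lamtor1* 1 CCGGAAG, 1 CACGTG and 1 CCAAT. *Rictor* had the highest G and C share of the members, 81.6%, with 40 CpG and 4 GGGCGG, and *Rptor* the lowest, 37.6%, with 9 CpG and no motif. Over all coding promoters, GGGCGG was found in 39.0%, CCAAT in 36.0%, TATAAA in 11.5%, CCGGAAG in 8.03%, CACGTG in 6.53%, AAGATGG in 4.16% and GCATGCG in 3.92%. The members with a promoter peak in every list and those with none both include promoters with and without CCAAT and GGGCGG. The 49 bases shown for *Tsc2* are all that separate its first start from that of *Nthl1*, a DNA repair gene that runs the other way.

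*Mlst8* (ENSMUSG00000024142.15) occupies bases 24473551 to 24479078 of chromosome 17, reverse strand, and encodes the subunit that binds the kinase domain of mTOR in both complexes. Its start was covered by a peak of 933 bp in WT replicate 1, from 24478720 to 24479652, with a fold enrichment of 4.69. In WT replicate 2 the peak was 781 bp wide, from 24478812 to 24479592, with a fold of 3.99. It ranked 327 of 15962 peaks in WT replicate 1 and 744 of 8859 in WT replicate 2, at the 98.0 and 91.6 percentile. No *TPdh-/-* list had a peak at this start or anywhere within 10 kb of the gene. The WT peaks reached 574 and 514 bp before the first start and 358 and 266 bp into the gene, and no other coding gene had this peak within 3000 bp of a start.

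Of all protein-coding genes, 484 (2.21%) had a promoter peak in both WT lists and in no *TPdh-/-* list. *Mlst8* was the 1 member of 10 with that pattern. It stood first among the 484 by the mean percentile of the WT lists, the peaks by which it was chosen. *1500011B03Rik* was close behind, at the 96.2 and 93.4 percentile, against 98.0 and 91.6 at *Mlst8*. A total of 255 other coding genes had promoter peaks at or above the percentile of *Mlst8* in both WT lists. Of these, 247 also had a promoter peak in all 3 *TPdh-/-* lists and 8 in 1 or 2 of them. None could lack a *TPdh-/-* peak, since *Mlst8* stood first among the 484 genes with the WT pattern. These numbers are therefore no separate result on *Mlst8*. When only the 4920 strongest peaks of each list were kept, the *Mlst8* peak was still present in both WT lists, at the 93.4 and 84.9 percentile, and in no *TPdh-/-* list. A second pair of WT peaks lay within 10 kb of *Mlst8*, 3237 and 3285 bp from the gene, at the most upstream annotated start of *E4f1*, a transcription factor gene. These had folds of 3.63 and 2.77, at the 80.0 and 35.4 percentile, and no *TPdh-/-* list had a peak there either.

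**Figure D1:**
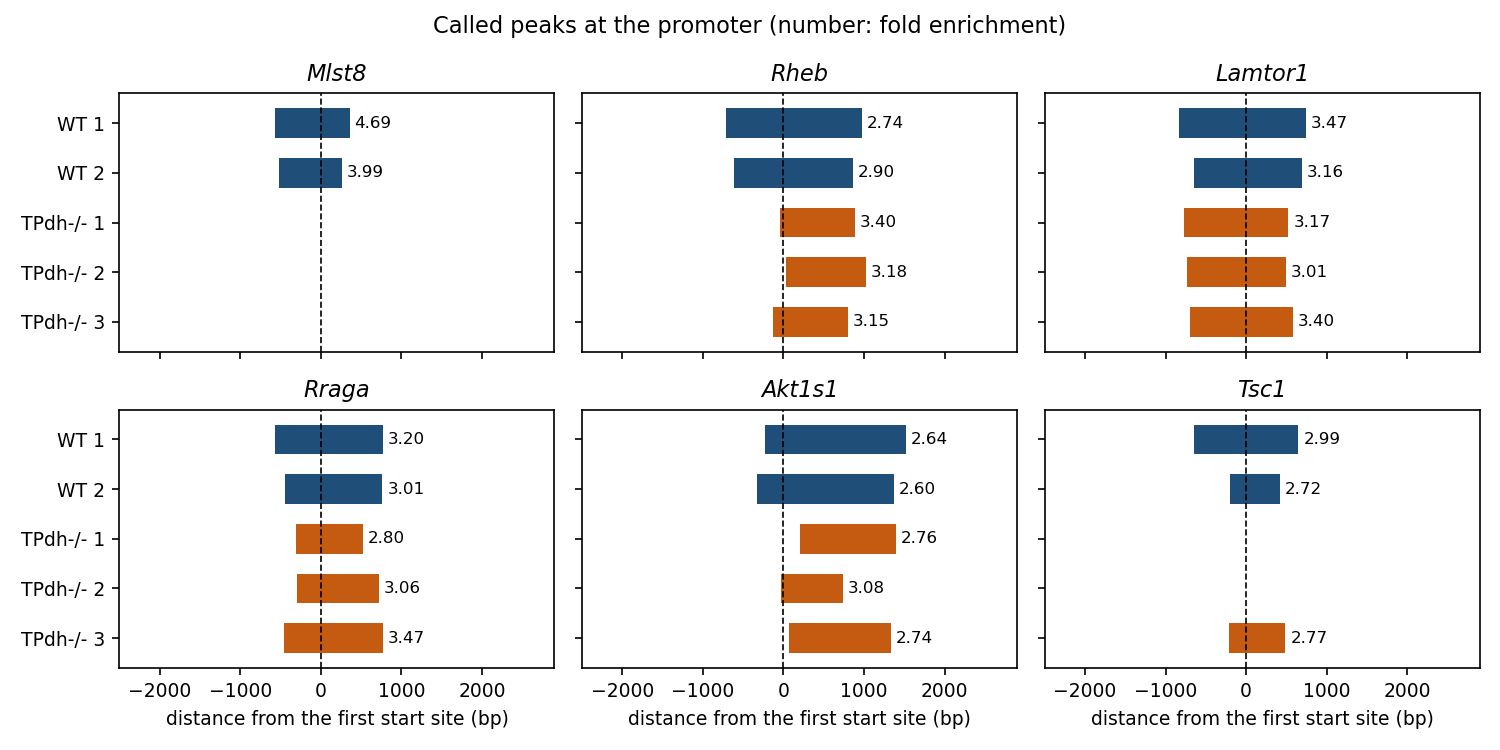
Called peaks around the first annotated start site (dashed line, 0 bp) of 6 genes, 1 row per library, with WT in blue and *TPdh-/-* in orange. Bars span each peak to scale in the direction of transcription, and the number beside a bar is its fold enrichment. *Mlst8* has bars in the WT rows alone, and the *Rheb* bars of WT, 1698 and 1480 bp wide, reach farther before the start than those of *TPdh-/-*.

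Genes whose promoters followed a pattern most like that of *Mlst8* were found by the Euclidean distance between percentiles over the 5 lists, with 0 where no peak was called. The nearest 5 coding genes were *1500011B03Rik* (distance 2.47 percentile points), *Yeats4*, a reader of acetylated lysine (5.51), *Exoc1*, a subunit of the exocyst (5.97), and *Fem1a* and *Rrp15*, a ribosome biogenesis gene (10.97 each). All of them had promoter peaks in both WT lists and in no *TPdh-/-* list, which the distance to *Mlst8* selects for and is no separate result. Folds in WT replicates 1 and 2 were 4.57 and 4.11 at *1500011B03Rik*, 3.89 and 4.22 at *Yeats4*, and 4.06 and 4.01 at *Exoc1*, against 4.69 and 3.99 at *Mlst8*. The points are 5 libraries, and lists of unequal length enter this distance.

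*Mtor* (ENSMUSG00000028991.15), which encodes the kinase itself, lies on chromosome 4 from 148448611 to 148557683 on the forward strand. No list had a peak within 3000 bp of any of its start sites. Its nearest strong peak lay beyond its other end, between 353 and 587 bp past the gene, and covered the start of *Exosc10*, a gene of the RNA exosome. That peak was among the strongest of every list, ranking 171 and 444 in WT, and 194, 87 and 134 in *TPdh-/-* replicates 1, 2 and 3. Its fold was 4.68 and 3.74 in WT and 3.997, 4.36 and 4.25 in *TPdh-/-*, so the groups overlapped.

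Within the *Mtor* gene, an intronic peak that began between 60357 and 60693 bp from the first start was called in both WT lists and in *TPdh-/-* replicates 2 and 3. It stood at the 48.5 and 41.3 percentile in WT and at the 19.9 and 44.2 percentile in these *TPdh-/-* lists. A second intronic peak, 77957 and 78026 bp from the first start, was called in both WT lists alone, at the 39.2 and 28.5 percentile. Both intronic peaks were weak, with folds between 2.37 and 2.69.

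*Rptor* (ENSMUSG00000025583.15) encodes Raptor, the scaffold that brings substrates to mTOR complex 1, and lies on chromosome 11 from 119602905 to 119899576 on the forward strand. Its first start carried a peak in WT replicate 1 alone, with a fold of 2.46 at the 21.2 percentile. The other promoter peaks counted for *Rptor* lay far inside this gene of 296672 bp, beginning between 252210 and 252248 bp from the first start. They covered internal start sites of transcripts that GENCODE marks as retained intron or nonsense-mediated decay. There, WT replicates 1 and 2 had folds of 2.28 and 2.37, and *TPdh-/-* replicate 2 had 2.43. These calls ranked at the 53.3, 12.1 and 20.2 percentile of their lists.
The strongest *Rptor* peaks were in its body. An intronic peak between 73516 and 74469 bp from the first start was called in both WT lists and in *TPdh-/-* replicates 1 and 3. It stood at the 67.2 and 71.3 percentile in WT, against 41.6 and 67.8 in those *TPdh-/-* replicates. WT widths were 1780 and 1435 bp, *TPdh-/-* widths 686 and 853 bp where it was called. The share of intronic peaks that were wider in WT was not counted. At promoter peaks called in every list, both WT widths were above all *TPdh-/-* widths for 31.3% of coding genes. A peak over an exon, 67614 and 67671 bp from the first start, was called in WT alone at the 67.5 and 81.4 percentile.

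**Figure D2:**
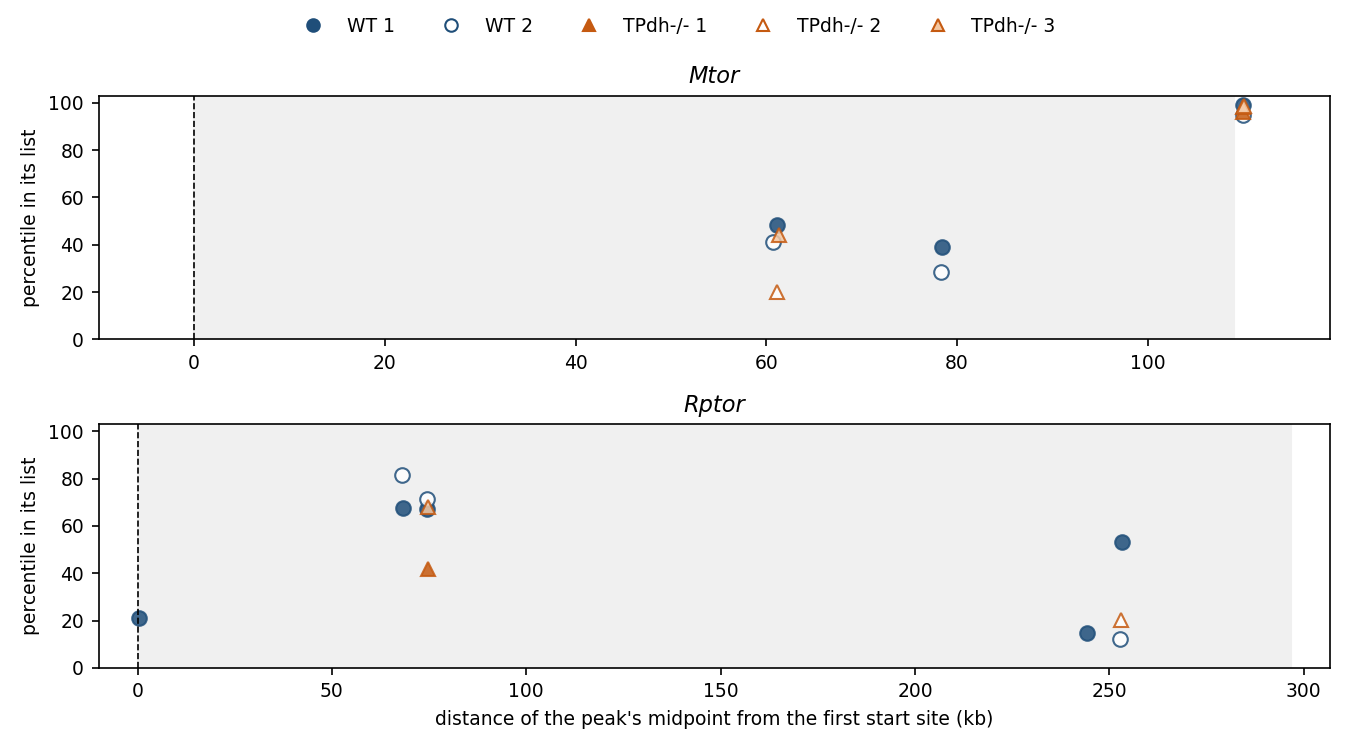
Percentile of every peak within 10 kb of *Mtor* (above) and *Rptor* (below) in its own list against the distance of its midpoint from the first start site in kb. The gray band is the gene, circles are WT and triangles *TPdh-/-*. *Mtor* has no point near its start and a group of 5 points above the 94 percentile just past its end, and the points of *Rptor* lie mainly inside the gene.

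*Akt1s1* (ENSMUSG00000011096.17) encodes PRAS40, a substrate and inhibitor of mTOR complex 1, and lies on chromosome 7 from 44848991 to 44855421. All 5 lists had a peak at its start, which also covered the start of *Mir707* in every list and that of the divergent gene *Tbc1d17* in every list but *TPdh-/-* replicate 1. Its fold was 2.64 and 2.60 in WT and 2.76, 3.08 and 2.74 in *TPdh-/-*, so both WT values were lower than each *TPdh-/-* value. The peak was wider in WT, 1744 and 1705 bp against 1192, 777 and 1274 bp. Its percentile was 82.0 and 44.4 in WT and 64.0, 78.4 and 74.3 in *TPdh-/-*, and here the groups overlapped.

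*Rictor* (ENSMUSG00000050310.9) encodes the defining subunit of mTOR complex 2 and lies on chromosome 15 from 6708379 to 6800401. A promoter peak was called in 1 library of each genotype, WT replicate 1 and *TPdh-/-* replicate 3, which are the longest lists. Its fold was 2.71 in WT replicate 1, at the 58.9 percentile, and 3.01 in *TPdh-/-* replicate 3, at the 78.7 percentile. The 2 peaks began 105 and 697 bp after the first start, and *Rictor* had no other peak within 10 kb in any list.

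*Rheb* (ENSMUSG00000028945.9), the GTPase that activates mTOR complex 1, occupies bases 24802823 to 24842624 of chromosome 5, reverse strand, and had the highest mean percentile of the members with a promoter peak in every list. Its peak ranked 1024 and 432 in WT, and 77, 156 and 178 in *TPdh-/-* replicates 1, 2 and 3. These ranks are percentiles of 93.6 and 95.1 in WT, against 98.5, 97.1 and 98.1 in *TPdh-/-*. Its fold was 2.74 and 2.90 in WT and 3.40, 3.18 and 3.15 in *TPdh-/-*. Both percentile and fold were thus lower in each WT library than in each *TPdh-/-* library. The −log10 q itself overlapped, with 11.5 and 8.93 in WT against 8.77, 8.84 and 12.9 in *TPdh-/-*. Mean percentiles were 94.4 ± 1.09 for WT (SD, n = 2) and 97.9 ± 0.684 for *TPdh-/-* (SD, n = 3), a difference of -3.54 (exact permutation test, two-sided, p = 0.2, adjusted p = 0.8 over 4 genes). The difference was -12.0 with lists of equal length and -15.7 when peaks were ranked by fold.

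In width the order was the other way. The *Rheb* peak measured 1698 and 1480 bp in WT, against 933, 993 and 941 bp in *TPdh-/-*, and the means were 1589 ± 154 bp (SD, n = 2) and 956 ± 32.6 bp (SD, n = 3), a difference of 633 bp (exact permutation test, two-sided, p = 0.2, adjusted p = 0.267 over 4 genes). The additional width of WT lay before the start. WT peaks reached 719 and 611 bp before the first start, into the sequence shown above and beyond it, while those of *TPdh-/-* replicates 1 and 3 reached 48 and 136 bp and that of replicate 2 began 36 bp inside the gene. A fold of a broad peak is a mean over its width, so the lower fold and the larger width of WT are not independent measures.

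*Tsc1* and *Tsc2* encode hamartin and tuberin, which together form the brake on Rheb. *Tsc1* (ENSMUSG00000026812.16), on chromosome 2 from 28641228 to 28691167, had a promoter peak in both WT lists and in *TPdh-/-* replicate 3. Its fold was 2.99 and 2.72 in WT and 2.77 in *TPdh-/-* replicate 3, at the 70.2, 32.3 and 52.5 percentile. *Tsc2* (ENSMUSG00000002496.10), on chromosome 17 from 24595816 to 24632630, had no peak within 10 kb in any of the 5 lists. *Tsc2* lies 117 kb from *Mlst8* on the same chromosome.

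*Rraga* encodes RagA, which binds mTOR complex 1 when amino acids are present, and *Lamtor1* encodes the subunit that tethers Ragulator to the lysosome. *Lamtor1* (ENSMUSG00000030842.12), on chromosome 7 from 101905904 to 101926675, had a promoter peak in every list, with folds of 3.47 and 3.16 in WT and 3.17, 3.01 and 3.40 in *TPdh-/-*. Its percentile was 97.6 and 87.1 in WT and 81.4, 76.2 and 94.1 in *TPdh-/-*. The peak also covered a start of *Tomt* on the opposite strand. *Rraga* (ENSMUSG00000070934.6), on chromosome 4 from 86575668 to 86577285, had folds of 3.20 and 3.01 in WT and 2.80, 3.06 and 3.47 in *TPdh-/-*. Its percentile varied most within a genotype, from 37.0 in *TPdh-/-* replicate 1 to 93.7 in replicate 3, with 90.2 and 78.8 in WT. For both genes fold and percentile overlapped between the groups.

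**Figure D3:**
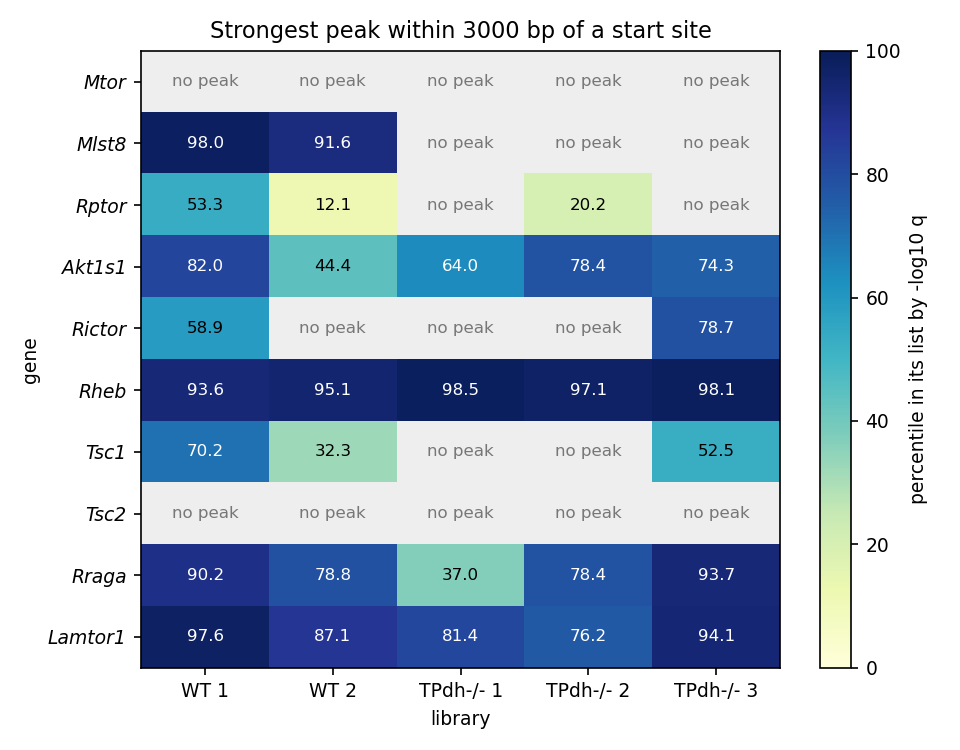
Percentile by −log10 q, within its own list, of the strongest peak within 3000 bp of a start site, with genes in rows and libraries in columns. Darker cells are higher and gray cells have no peak. *Rheb* is above 93 in all 5 columns, *Mlst8* is above 91 in the WT columns alone, and *Mtor* and *Tsc2* are empty.

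Over the 10 genes, promoter peaks were called at 8 genes in WT replicate 1, at 7 in WT replicate 2, and at 4, 5 and 6 in *TPdh-/-* replicates 1, 2 and 3. The means were 7.5 ± 0.707 genes (SD, n = 2) and 5 ± 1.00 genes (SD, n = 3). Since *Mlst8* was chosen by these peaks and adds 1 gene to each WT list, no test is given of this count. Over the other 9 genes the numbers were 7 and 6 in WT, against 4, 5 and 6 in *TPdh-/-*, so the groups overlapped. Over all coding genes, 42.1% and 24.8% had a promoter peak in WT, against 15.3%, 16.5% and 27.9% in *TPdh-/-*, so the share of members was above that background in every list. With lists of equal length 6 and 4 of the 10 genes had a promoter peak in WT, against 4, 5 and 6 in *TPdh-/-*, with a mean of 5 in both. Without *Mlst8* these were 5 and 3 in WT, against 4, 5 and 6. Promoter peaks were found in all 5 lists at 4 members, *Rheb*, *Akt1s1*, *Lamtor1* and *Rraga*, against 10.9% of coding genes, and in no list at 2 members, against 56.7%. Including the gene body and 10 kb on either side, 9 and 8 members had a peak in WT and 6, 6 and 8 in *TPdh-/-* (8 and 7, against 6, 6 and 8, without *Mlst8*), where 54% and 36.4% of coding genes did in WT and 23.2%, 24.7% and 39.2% in *TPdh-/-*. In all, 59 peaks lay in these windows, 32 of them at promoters. In *TPdh-/-* replicate 1, *Mtor* counted as a member with a peak only through the peak over the start of *Exosc10*, past the gene.

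**Figure D4:**
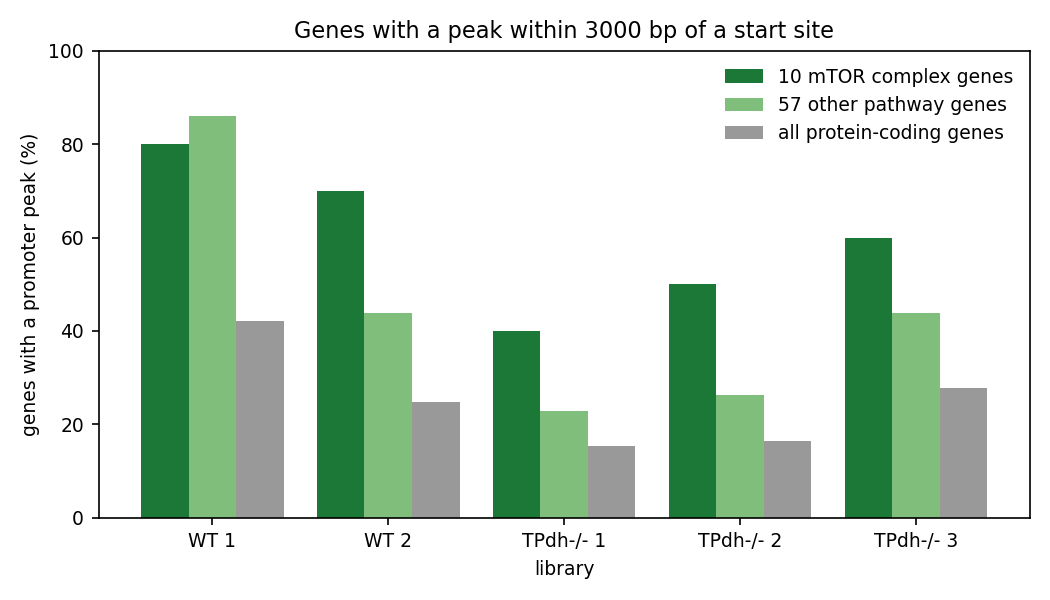
Share of genes, in percent, with a peak within 3000 bp of a start site in each library, for the 10 mTOR complex genes, the 57 other genes of the pathway and all protein-coding genes. Bars for the members are between 40% (*TPdh-/-* replicate 1) and 80% (WT replicate 1), and bars for all coding genes between 15.3% and 42.1% in the same libraries.

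The 4 members with a promoter peak in every list were compared in strength and width, beside the 2390 coding genes of the same kind. Both WT widths were above all 3 *TPdh-/-* widths at *Rheb*, *Akt1s1* and *Lamtor1*, 3 of 4 members, against 31.3% of the coding genes. The reverse order held at no member and at 0.293% of the coding genes. The median difference in width between WT and *TPdh-/-* was 443 bp over the 4 members and 235 bp over the coding genes. It was 644 bp at *Akt1s1* and 189 bp at *Lamtor1* (exact permutation test, two-sided, p = 0.2 for each), and 253 bp at *Rraga*, where the groups overlapped (exact permutation test, two-sided, p = 0.4).
In fold, both WT values were below all *TPdh-/-* values at *Rheb* and *Akt1s1*, 2 of 4 members, against 8.08% of the coding genes, and the reverse held at no member and at 15.8% of the coding genes. The difference was -0.42 at *Rheb* and -0.24 at *Akt1s1* (exact permutation test, two-sided, p = 0.2 for each, adjusted p = 0.4 over 4 genes). In percentile, both WT values were below all *TPdh-/-* values at *Rheb* alone, against 1.38% of the coding genes, and above them at no member, against 26.4%. The median difference in percentile was 2.44 over the members and 9.21 over the coding genes. No test of these 4 genes passed 0.05, which the number of libraries does not allow.

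**Figure D5:**
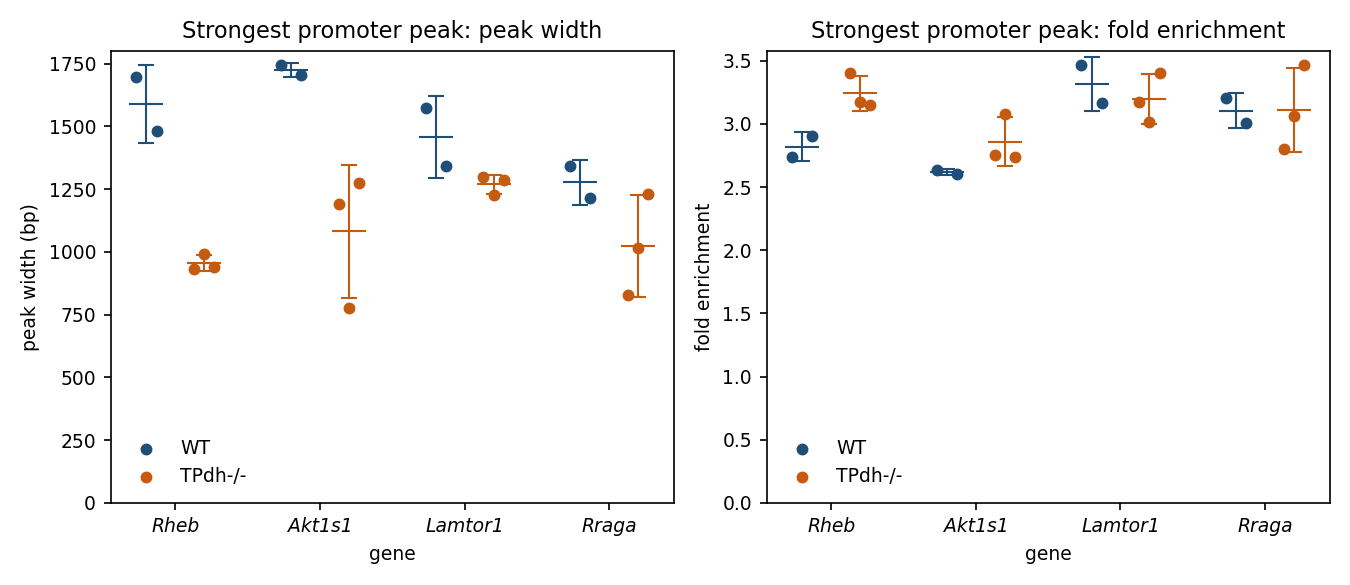
Width in bp (left) and fold enrichment (right) of the strongest promoter peak of the 4 members called in all 5 lists. Points are libraries, with WT in blue and *TPdh-/-* in orange, the long horizontal line is the mean and the bars are 1 SD (n = 2 and 3). The WT widths of *Rheb*, *Akt1s1* and *Lamtor1* lie above all *TPdh-/-* widths, and the WT folds of *Rheb* and *Akt1s1* lie below.

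Among 57 other genes of the pathway, a promoter peak was called at 49 in WT replicate 1 and 25 in WT replicate 2, against 13, 15 and 25 in *TPdh-/-*. WT replicate 2 and *TPdh-/-* replicate 3 thus had the same number, and the difference of 19.3 genes rested mainly on WT replicate 1 (exact permutation test, two-sided, p = 0.4, and 7.33 genes without that library). With lists of equal length the numbers were 21 and 17 in WT and 13, 14 and 19 in *TPdh-/-*. A promoter peak was present in every list at 9 of these 57 genes, against 10.9% of coding genes, and in none at 8, against 56.7%. The strongest was at *Flcn*, which encodes folliculin, a regulator of the Rag GTPases, at the 99.5 percentile or above in all 5 lists and with folds of 4.53 and 4.27 in WT and 4.63, 4.11 and 4.48 in *TPdh-/-*. *Akt2*, a kinase upstream of the TSC complex, and *Itfg2*, a subunit of the KICSTOR complex that holds the amino acid brake on the lysosome, followed. Their percentiles ranged from 90.4 to 98.7 and from 85.7 to 99.4.
Of these 57 genes, 3 shared the pattern of *Mlst8*, with a promoter peak in both WT lists and no *TPdh-/-* list, against 2.21% of coding genes. No gene of the 57 had a promoter peak in *TPdh-/-* alone, and the share of coding genes with that order was not counted. The 3 genes were *Akt1*, which encodes a substrate of mTOR complex 2, *Prr5l*, which encodes a protein that binds that complex, and *Tfeb*, a transcription factor for lysosomal genes that mTOR complex 1 holds in the cytosol. Their peaks were weaker than that of *Mlst8*, at the 49.8 and 39.3 percentile for *Akt1*, 37.3 and 25.8 for *Prr5l*, and 3.82 and 31.1 for *Tfeb*.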

How the data were processed

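ChIPseq of acetylated histones was available as 5 broadPeak lists, 1 per library, of 2 WT and 3 *TPdh-/-* libraries. The authors aligned reads with BWA-mem (0.7.17) to GRCm38/mm10, kept uniquely mapping reads outside blacklisted regions with Samtools (1.15.1) and called broad peaks with MACS2 (2.2.6), versions as in the submitters' processing notes. The study's text names no input control for these calls. The deposited lists hold a fold enrichment (a ratio on a linear scale), −log10 p, −log10 q and a score derived from −log10 q for each peak, and no read numbers. Fold averages over a peak, and the q limit makes presence depend on depth, which is unknown.

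Genes, start sites and exons were from GENCODE M21 of GRCm38, and sequences from the RefSeq assembly GRCm38.p6. Peaks were counted at an overlap of 1 bp with the window, which was 3000 bp around a start site or 10 kb around the gene, and ranked by −log10 q with Python 3.11.15, numpy 2.4.6 and pandas 2.3.3. Where a gene had several promoter peaks, the strongest was used. Scoring was tested on simulated lists with known answers, which it returned. The genotypes were compared in exact permutation tests, two-sided as double the smaller one-sided p, with Benjamini-Hochberg adjustment over 4 genes. Named pathway genes were those with a promoter peak in WT alone or *TPdh-/-* alone, and the 3 with the highest mean percentile among those in every list. Members and lists were chosen with earlier results of these data known. The alternatives tried were −log10 q limits, lists of equal length, other windows, start sites and ranks, a replicate block, and each library left out in turn. Counting at the first start site alone, and without *Mlst8*, was added after the data were seen. DiffBind, which the authors ran on reads, was not used here. Markers of other cell types and some peaks near a member are not reported here.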

Additional observations from a re-analysis of the deposited data

How the results depend on the processing

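The differences between genotypes changed with the length of the lists. With lists of equal length, the difference in members with a promoter peak went from 2.5 to 0 and that in members with a peak within 10 kb from 1.83 to -0.167, which changed sign. When −log10 q had to reach 5, these differences were 2.67 and 3.33. Over the members other than *Mlst8* they were 1.5 and 0.833 with the full lists. With lists of equal length and without *Mlst8*, the mean number with a promoter peak was 4 in WT and 5 in *TPdh-/-*. Within 10 kb it was 5.5 in WT and 6.67 in *TPdh-/-*, so both differences changed sign. The members with a promoter peak in all libraries were 4, 1 with a −log10 q of at least 5 (*Rheb*), and 3 with lists of equal length. *Mlst8* kept its WT promoter peak, and had none in *TPdh-/-*, under every setting run. This followed from the strong WT peaks by which *Mlst8* was chosen, so it is no support for the pattern. Leaving out each library, the members with that pattern were from 1 to 2. *Rptor* joined without *TPdh-/-* replicate 2 and *Tsc1* without *TPdh-/-* replicate 3. Leaving out each library also gave differences from 2 to 3 members with a promoter peak, from 1.33 to 2.5 members with a peak within 10 kb, and from 7.33 to 31.3 other pathway genes, the lowest without WT replicate 1 and the highest without WT replicate 2. That difference was 19.3 with all libraries, 3.67 with lists of equal length and 8.83 when −log10 q had to reach 5.

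Replicate numbers are not stated to pair libraries, and over 2390 genes the differences between numbers 1 and 2 of the 2 genotypes had a correlation of -0.00103. Under the replicate block, in which only numbers 1 and 2 enter, the differences were 3 members, 2.5 members and 23 other genes, and 2 members had peaks in WT alone. The *Rraga* fold difference changed sign under the block, to 0.172, and ranged from -0.159 to 0.172 over the left-out libraries, the lowest without *TPdh-/-* replicate 1, the highest without *TPdh-/-* replicate 3, and 0.0913 without WT replicate 2. The *Rraga* percentile difference was -2.07 in lists of equal length and ranged from -1.56 (without *TPdh-/-* replicate 1) to 26.8 (without *TPdh-/-* replicate 3). The *Akt1s1* percentile difference ranged from -27.8 (without WT replicate 1) to 9.80 (without WT replicate 2), and the *Lamtor1* fold difference from -0.0309 (without WT replicate 1) to 0.274 (without WT replicate 2). The width differences kept their sign under all settings run, and so did the percentile and fold differences of *Rheb*, but not their size. Lists of equal length only drop peaks and leave the width and fold of a kept peak unchanged, so they were no test of these. *Akt1s1* did not enter that setting, since its peak of WT replicate 2 was dropped. Taking the promoter peak nearest to a start site picked the same peaks. The *Lamtor1* width difference of 189 bp was 73.3 bp without WT replicate 1 and 305 bp without WT replicate 2, that of *Rraga*, 253 bp, was 153.5 bp without *TPdh-/-* replicate 1, and the *Akt1s1* fold difference of -0.24 was -0.13 without *TPdh-/-* replicate 2. The *Lamtor1* percentile difference of 8.43 was 3.14 with lists of equal length, 3.24 ranked by fold, 3.20 without WT replicate 1, 4.59 without *TPdh-/-* replicate 2, and 13.7 and 13.5 without WT replicate 2 and *TPdh-/-* replicate 3. The cause of these changes was not tested.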

Other observations

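The neighbourhood of *Mlst8* and *Tsc2* on chromosome 17 was read from 24373551 to 24732630, which takes in 100 kb on either side of the genes. The window was chosen after the values were seen. It held 11 regions with a peak in at least 1 list. All 5 lists had a peak in 3 of them, over *Rnps1*, over an internal start of *E4f1*, and 166 bp from *Pkd1*. Both WT and no *TPdh-/-* list had a peak in 3 others, at *Mlst8*, at the most upstream start of *E4f1* and at *Eci1*, a gene of fatty acid oxidation. The *Eci1* peak had percentiles of 71.6 and 6.39 in WT. A further 4 regions were called in WT replicate 1 alone, over *Traf7*, *Zfp598* and *Rps2* and 514 bp from *Syngr3*, and 1, at *Tbl3*, in 2 WT and 2 *TPdh-/-* lists. No region of this window was called in *TPdh-/-* alone, and *Mlst8*, which was chosen for its strong WT peak, was its strongest region in WT. The share of such regions in the rest of the genome was not counted, and WT replicate 1 is the longest list. The regions called in every list, at *Rnps1*, *E4f1* and *Pkd1*, stood at the 79.8, 87.2 and 77.6 percentile in WT replicate 1, where *Mlst8* stood at 98.0, and at 74.9, 87.7 and 87.9 in WT replicate 2, where *Mlst8* stood at 91.6.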
